A study of Mus musculus with 2 samples.

Results

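The agouti locus genes are 9 protein-coding genes of mouse chromosome 2 that lie between 154335380 and 155226855 in GRCm38 coordinates: agouti (symbol a), Gm14226, Raly, Eif2s2, Chmp4b, Ahcy, Itch, Cdk5rap1 and Necab3. They were taken by name and position from 19720 genes listed in a table of RNA sequencing counts, and a window of 1 Mb that holds them all overlaps 12 other listed genes. The names were picked with the difference between the libraries already in view, so every value below is a description. The libraries came from embryonic mouse forebrain of H2A.Z conditional knockout mice (H2AZcKO, here H2A.Z cKO) and of mice with floxed H2A.Z alleles (H2AZfl/fl, here H2A.Z fl/fl, whose title says WT), with 1 sample each on a C57BL/6 background. H2A.Z takes the place of ordinary H2A in some nucleosomes. No source used here gives the Cre driver of the deletion, the floxed exons, any pooling of animals or the allele carried at agouti. Tissue is labelled telencephalic and the protocol names dissected cerebral cortex. Titles give embryonic day 16 and a stage field gives embryonic day 12. The design text speaks of triplicates, but 1 count column per genotype was analysed. There is therefore no replicate check, no test between genotypes was possible, and the ranges in brackets are exact 95% intervals (Clopper-Pearson) for how a gene's reads divide between the libraries, which cover counting error only.

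Agouti encodes a secreted antagonist of melanocortin receptors. In hair follicles it switches melanocytes from dark to yellow pigment, and outside the skin it can act on the brain receptors that the agouti-related peptide normally blocks. The locus is a classic of mouse genetics. In the nonagouti allele of C57BL/6 mice, retrovirus-like sequence sits in an agouti intron and the gene is little used. In the lethal yellow allele, a deletion removes most of Raly and Eif2s2 and joins agouti to the Raly promoter, so that agouti is made in many tissues. Raly itself takes its name from that allele (hnRNP-associated with lethal yellow), and the allele is lethal when homozygous. These statements are background, and neither allele was typed here.

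The libraries held 9028523 reads in genes for H2A.Z cKO and 8474545 for H2A.Z fl/fl. H2afz, the targeted gene, had 535 reads in the cKO library and 1152 in the fl/fl library, a log2 ratio of -1.16 (-1.31 to -1.01). A gene is called measured where both libraries together gave it 20 reads or more, and 14366 genes were. Ratios are of reads scaled by the TMM method, cKO over fl/fl, and a gene is called apart at 1.5-fold or more. The median log2 ratio of all measured genes was 0.0018, and 3.52% of them were at least 1.5-fold higher in cKO and 5.43% at least 1.5-fold lower, or 8.95% apart either way. All 10 dorsal cortex markers, such as Emx1, Tbr1 and Neurod6, were measured and within 1.5-fold, with summed TMM-scaled levels of 3540 CPM in cKO and 3616 CPM in fl/fl.

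At the middle of the locus the libraries differed in opposite directions for neighbouring genes. Gm14226 and agouti were far higher in cKO, whereas Raly and Eif2s2, which lie upstream of Gm14226, were near 2-fold lower. Chmp4b on one side and Ahcy and Itch on the other were within 1.5-fold. Of the 9 members, all measured, 2 were at least 1.5-fold higher in cKO and 4 at least 1.5-fold lower, and these 6 were also beyond counting error. Agouti reached the read minimum through its cKO reads alone. Over all measured genes, 2.02% were at least 1.5-fold higher and beyond counting error, 3.2% at least 1.5-fold lower and beyond counting error, and 21.8% were beyond counting error at any fold. As the members were picked on this same difference, nothing is read from the comparison of these shares.

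**Figure D1:**
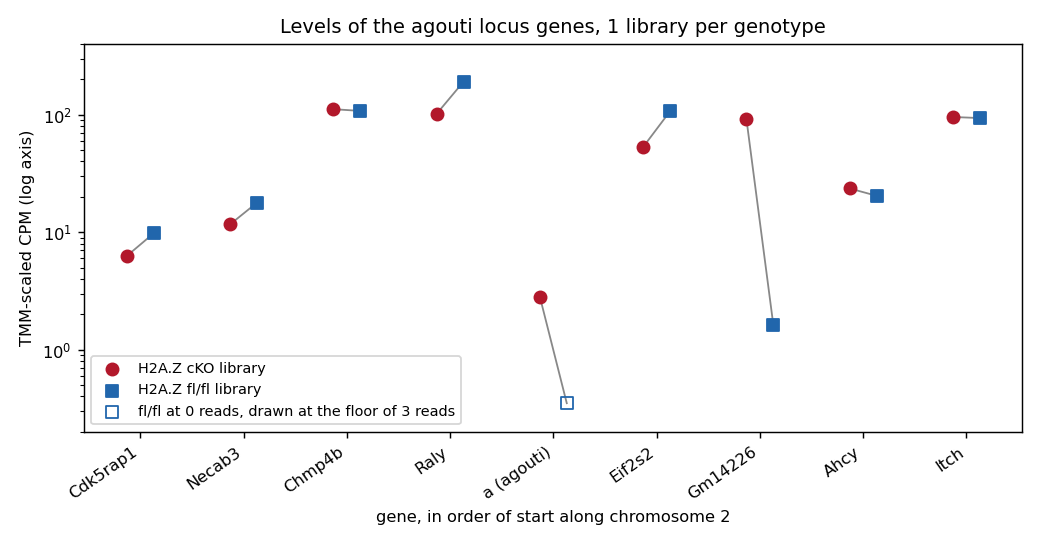
TMM-scaled CPM (log axis) of the 9 members, in order along the chromosome, with 1 point per library and no error bars because each genotype has 1 library. Gm14226 stands at 91.6 CPM in cKO and 1.63 CPM in fl/fl, Raly and Eif2s2 are lower in cKO, and Chmp4b and Itch are nearly level. The open square marks agouti in fl/fl, which had 0 reads and is drawn at the level of 3 reads, 0.350 CPM.

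The promoters of Raly, Eif2s2 and agouti, the genes at the core of the locus, are shown with that of Chmp4b, a near neighbour within 1.5-fold, so that the letters upstream of each can be compared. Sequences are from RefSeq on GRCm38.p6, 250 bases before to 50 after the start, 5′ to 3′ on the gene's strand, and 7 of the 9 members had an entry. Capitals mark 3 motifs, each searched on both strands. The GC box was spelled GGGCGG. The CCAAT box was searched by the letters of its name. The TATA box was spelled TATAAA. None of the 3 overlaps another in the windows shown.
Raly, chr2:154790860-154791159, plus strand: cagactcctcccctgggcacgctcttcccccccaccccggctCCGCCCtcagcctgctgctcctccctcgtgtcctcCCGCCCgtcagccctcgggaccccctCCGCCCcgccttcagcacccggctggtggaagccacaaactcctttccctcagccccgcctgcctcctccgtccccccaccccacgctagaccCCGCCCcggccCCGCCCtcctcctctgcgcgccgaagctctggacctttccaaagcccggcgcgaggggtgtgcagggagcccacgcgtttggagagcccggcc
Eif2s2, chr2:154892857-154893156, minus strand: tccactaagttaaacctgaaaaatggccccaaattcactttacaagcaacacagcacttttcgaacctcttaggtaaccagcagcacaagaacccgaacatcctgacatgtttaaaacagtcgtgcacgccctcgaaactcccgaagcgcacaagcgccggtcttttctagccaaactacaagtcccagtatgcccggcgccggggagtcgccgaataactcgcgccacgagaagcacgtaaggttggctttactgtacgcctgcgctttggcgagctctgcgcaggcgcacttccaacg
a, chr2:155013320-155013619, plus strand: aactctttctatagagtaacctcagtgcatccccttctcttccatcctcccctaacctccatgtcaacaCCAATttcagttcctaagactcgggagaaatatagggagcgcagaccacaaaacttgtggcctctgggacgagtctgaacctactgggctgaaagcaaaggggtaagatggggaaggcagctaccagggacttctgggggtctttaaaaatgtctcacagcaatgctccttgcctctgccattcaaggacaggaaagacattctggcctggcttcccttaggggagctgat
Chmp4b, chr2:154656776-154657075, plus strand: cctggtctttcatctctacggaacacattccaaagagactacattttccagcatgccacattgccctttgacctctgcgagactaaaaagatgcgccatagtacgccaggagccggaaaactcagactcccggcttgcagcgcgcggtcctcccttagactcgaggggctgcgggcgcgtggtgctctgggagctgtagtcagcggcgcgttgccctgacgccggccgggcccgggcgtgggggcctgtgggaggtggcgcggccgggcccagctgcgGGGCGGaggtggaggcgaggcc
The Raly window holds 5 GC boxes, is 73.7% G and C and has 25 CpG pairs. Of 32851 promoters in the same table, 35.7% hold a GC box, and the median has 52.7% G and C and 7 CpG pairs. The Eif2s2 window holds none of the 3 motifs and has 24 CpG pairs, and the Chmp4b window holds 1 GC box and 27 CpG pairs. The agouti window, which covers the annotated starts nearest upstream of its coding exons, holds 1 CCAAT box, which 37.4% of promoters hold, and 3 CpG pairs. Which agouti start gave its reads was not tested. A TATA box is found in 13.6% of promoters and in none of these 4 windows. Of the members called apart but not shown, the Cdk5rap1 window holds 1 GC box, and the Necab3 window 3 GC boxes and 1 CCAAT box. These matches describe letters only. Gm14226 and Itch are the members without an entry.

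The gene models at the locus are nested, which bears on how reads can be counted. In GENCODE M21, whose positions for all 9 members are identical to those in the deposited table, agouti spans 154791402 to 155051012 on the plus strand and has 6 transcripts. The longest of them, a-204, starts 306 bases after the start of Raly (154791096 to 154867261, plus strand). Its first exon is 147 bases long and lies wholly inside Raly exons. The intron that follows is 159645 bases long and spans the rest of Raly and all of Eif2s2 (154871410 to 154892935, minus strand). Transcripts a-202 and a-203 start about 160 kb after the start of Raly, and a-201 and a-206 about 222 kb after that start. The coding sequence starts at 155045622 in each of the 4 coding transcripts and is 393 bases long in a-201 and a-202. Of 1169 exonic bases of agouti, 147 (12.6%) are shared with Raly and none with Eif2s2 or Gm14226. Reads from that shared exon cannot be assigned to Raly or agouti with certainty.

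**Figure D2:**
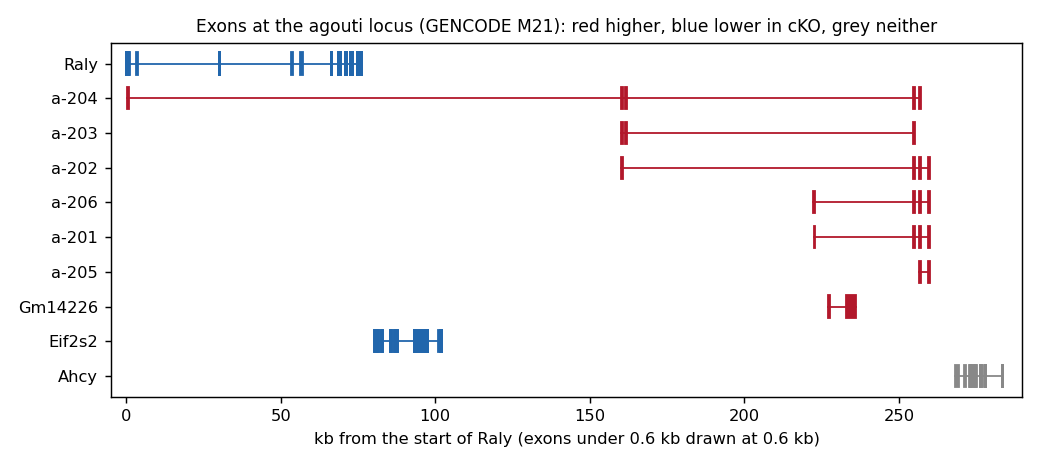
Exons (boxes) and introns (lines) of Raly, the 6 agouti transcripts, Gm14226, Eif2s2 and Ahcy, by distance from the start of Raly in kb, with exons under 0.6 kb drawn wider than they are. Transcript a-204 begins within Raly exons, and Gm14226 lies inside the long agouti intron that precedes the coding exons.

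Gm14226 lies inside that agouti region as well. It spans 155018266 to 155027104 on the plus strand, in intron 1 of a-201, which is 31970 bases long. It has 1 transcript with 2 exons, and its coding part, 155024125 to 155026182, lies in exon 2. The deposited annotation matches its protein to a retroviral envelope glycoprotein, with the Pfam domain TLV_coat, and its best protein hit is a predicted isoform of the agouti-signaling protein. Retroviral envelope genes in the mouse genome are remnants of old infections and exist in many related copies, so reads of Gm14226 may be shared with near-identical copies elsewhere. No source used here says how such reads were treated.

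Gm14226 had 817 reads in the cKO library and 14 in the fl/fl library. Its TMM-scaled level was 91.6 CPM in cKO and 1.63 CPM in fl/fl, a log2 ratio of 5.76 (5.06 to 6.69), or 54.2-fold higher (33.3 to 103.1). The libraries are thus separated by far more than counting error. Among all measured genes, with no further read minimum, the ratio of Gm14226 ranked 5 from the highest. Among the summed reads of the 9 members, Gm14226 took 18.4% (17.3 to 19.6) of 4441 reads in cKO and 0.297% (0.163 to 0.498) of 4708 reads in fl/fl. In the authors' deposited table its adjusted p is 1.64e-184, by an unnamed test, and 1 gene there has a lower one. Of 10137 named genes that reached 100 reads in the library where they were higher, those next below it were Tcf7l2, a Wnt pathway transcription factor gene of the thalamus, at 3.13 on the log2 scale, Syt13, a synaptotagmin gene, at 1.73, and Isl1, a LIM homeobox gene, at 1.65. With 1 library per genotype this order rests on 2 values per gene. For the same reason the deposited p-values are not taken as a measure of differences between animals.

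The other genes that the deposited annotation gives the same Pfam domain ranged from lower to higher. This group was chosen after values were seen. Of 25 such genes, 18 were measured, of which 3 were at least 1.5-fold higher in cKO and 2 at least 1.5-fold lower, beside 8.95% of all measured genes apart either way. The most abundant, Gm43549 on chromosome 3, had 4958 reads in cKO and 2428 in fl/fl, a log2 ratio of 0.97 (0.90 to 1.04). The next, Gm42427 on chromosome 5, had 2321 reads in cKO and 2416 in fl/fl, a log2 ratio of -0.11 (-0.20 to -0.03). Of the 3 higher genes, Gm43549 alone was beyond counting error, and its ratio was the highest of the 18. Of the 2 lower genes, Gm14296 alone was beyond counting error, with 111 reads in cKO and 173 in fl/fl, a log2 ratio of -0.69 (-1.05 to -0.34).

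Agouti had 25 reads in the cKO library and 0 in the fl/fl library. The cKO level was 2.80 CPM after TMM scaling, and 0 reads in fl/fl allow up to 0.350 CPM. Against a floor of 3 reads in the fl/fl library agouti was 8.01-fold higher in cKO. The exact interval runs lower, from 6.05-fold upward. Per kb of annotated exon, agouti stood at 2.40 CPM in cKO, next to Cdk5rap1 at 1.83 CPM per kb in the same library. In the authors' deposited table agouti is marked significant, with an adjusted p of 1.8e-05. Of genes for melanocyte enzymes and pigment proteins, Dct had 112 reads in cKO and 114 in fl/fl, Tyr 3 and 5, and Pmel 1 and 4.

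Raly and Eif2s2 were lower in cKO by almost the same factor. Raly, an RNA-binding protein of the hnRNP C family that takes part in RNA processing, had 908 reads in cKO and 1638 in fl/fl, a log2 ratio of -0.91 (-1.03 to -0.79), or 1.88-fold lower (1.73 to 2.04). Eif2s2, the beta subunit of the factor eIF2 that brings the initiator tRNA to the ribosome, had 474 reads in cKO and 917 in fl/fl, a log2 ratio of -1.01 (-1.17 to -0.85), or 2.01-fold lower (1.80 to 2.25). Both intervals include a 2-fold difference. Among all measured genes, 1.92% had a lower ratio than Eif2s2 and 2.46% a lower ratio than Raly. Their ends are 4148 bases apart, on opposite strands. Eif2s2 had 52.2 reads per 100 Raly reads in cKO and 56.0 in fl/fl, a ratio of 0.932 (0.811 to 1.07), so a difference between their ratios was not detectable at this depth.

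The same counts can be given as ratios of neighbours within each library, which need no scaling between libraries. Chmp4b and Itch were themselves picked with their values known, so these ratios restate the counts and add no support. For every 100 reads of Chmp4b, which lies 96310 bases upstream of Raly, there were 91.3 reads of Raly in cKO and 177.3 in fl/fl, a ratio of 0.515 (0.456 to 0.583). For Eif2s2 the values were 47.7 in cKO and 99.2 in fl/fl, a ratio of 0.481 (0.416 to 0.555). Itch gave similar values on the other side, with ratios of 0.522 (0.459 to 0.593) for Raly and 0.487 (0.419 to 0.565) for Eif2s2. Itch and Chmp4b themselves kept their proportion, with 85.8 Itch reads per 100 Chmp4b reads in cKO and 86.9 in fl/fl. On the CPM scale Raly stood at 102 in cKO and 191 in fl/fl, a difference of -89.2 CPM, and Gm14226 differed by 90.0 CPM the other way. The merged exons of Raly and Gm14226 are close in length, at 3292 and 3243 bases, but which Raly transcripts these cells use is not known. These amounts are therefore not numbers of transcripts, and a link between these differences was not tested.

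The members that flank this core were level. Chmp4b, a subunit of the ESCRT-III complex that cuts membrane necks in cell division and vesicle sorting, had 994 reads in cKO and 924 in fl/fl, a log2 ratio of 0.05 (-0.08 to 0.18). Ahcy, the hydrolase that clears S-adenosylhomocysteine after methylation reactions, had 210 reads in cKO and 175 in fl/fl, a log2 ratio of 0.21 (-0.09 to 0.50). It lies 32205 bases downstream of Gm14226, on the minus strand from 155059310 to 155074497. Itch, a ubiquitin ligase of the NEDD4 family whose loss in the mouse mutant itchy was found through an inversion that also breaks agouti, had 853 reads in cKO and 803 in fl/fl, a log2 ratio of 0.03 (-0.11 to 0.17). Itch turned to -0.0043 when scaled by library total. All 3 intervals include level and lie within 1.5-fold.

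The members furthest upstream were lower by smaller margins. Cdk5rap1, an enzyme that modifies mitochondrial tRNAs and was named for binding the Cdk5 activator, had 56 reads in cKO and 84 in fl/fl, a log2 ratio of -0.64 (-1.16 to -0.14), or 1.56-fold lower (1.10 to 2.23). Necab3, a neuronal calcium-binding protein, had 104 reads in cKO and 153 in fl/fl, a log2 ratio of -0.61 (-0.99 to -0.24), or 1.53-fold lower (1.18 to 1.98). Their levels are far below that of Raly, and both lie just past the 1.5-fold limit, with intervals that reach well inside it. The authors' deposited table marks neither as significant, with adjusted p-values of 0.0687 for Cdk5rap1 and 0.00794 for Necab3. In the authors' deposited table Raly is not marked either, with an adjusted p of 2.04e-55 and a fold of 1.92, fl/fl over cKO, whereas Eif2s2 is marked, with an adjusted p of 1.98e-36 and a fold of 2.06. Necab3 shares 71 exonic bases with 1700003F12Rik on the opposite strand, which had 9 reads in cKO and 12 in fl/fl, and without a stated strand setting such reads cannot be told apart.

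**Figure D3:**
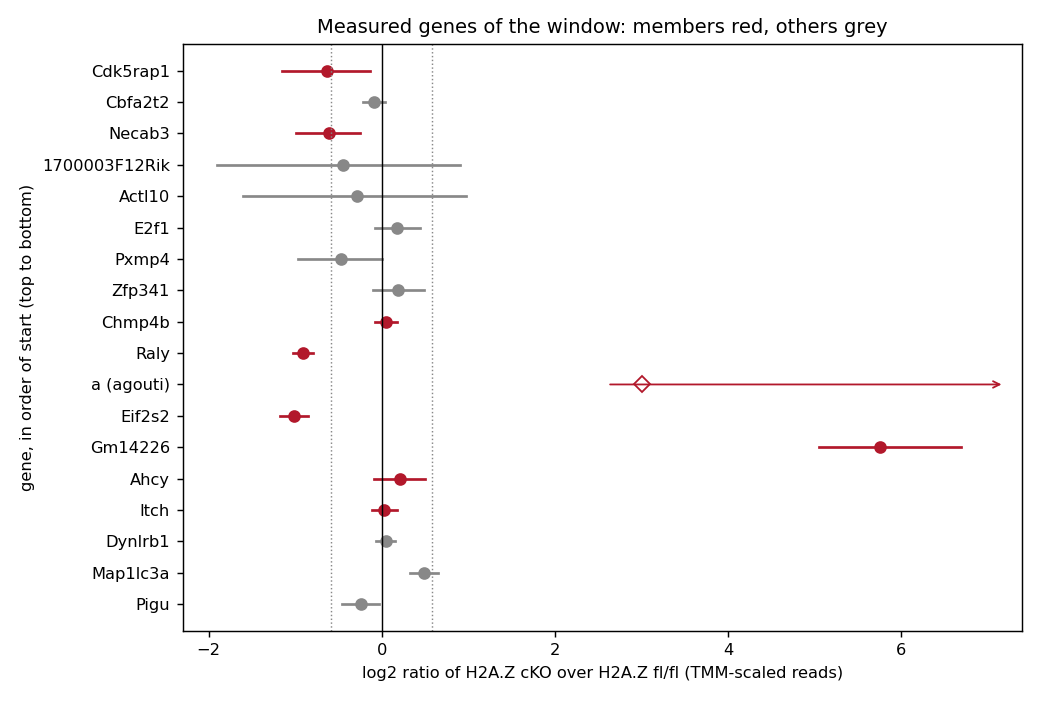
Log2 ratio of cKO over fl/fl for measured genes of the window, top to bottom in order of start, with exact 95% intervals for counting error. Dotted lines mark 1.5-fold either way. The diamond gives agouti against the floor of 3 reads and its arrow the open-ended interval. Gm14226 and agouti lie to the right, Raly and Eif2s2 to the left, and Chmp4b, Ahcy and Itch at level.

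The lower ratios of Cdk5rap1 and Necab3 were set beside those of other genes in their stretch. Pxmp4, a peroxisomal membrane protein gene, had 65 reads in cKO and 87 in fl/fl, a log2 ratio of -0.47 (-0.96 to 0.0031). Cbfa2t2, a transcriptional corepressor gene in the same stretch with more reads, had 1039 reads in cKO and 1060 in fl/fl, a log2 ratio of -0.09 (-0.21 to 0.04). E2f1, the cell cycle transcription factor gene, and Zfp341, a zinc finger gene, leaned the other way at 0.18 (-0.07 to 0.44) and 0.19 (-0.10 to 0.49). Actl10, an actin-like gene inside Necab3, had 11 reads in cKO and 13 in fl/fl, a log2 ratio of -0.29 (-1.60 to 0.98). The gene 1700003F12Rik, which overlaps Necab3, was at -0.45 (-1.90 to 0.90). More of these neighbours leaned lower than higher, each with an interval that includes level.

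Downstream of Itch the neighbours were also within 1.5-fold. Dynlrb1, a dynein light chain gene, had a log2 ratio of 0.04 (-0.06 to 0.15). Map1lc3a, which encodes an autophagosome protein, had 761 reads in cKO and 521 in fl/fl, a log2 ratio of 0.49 (0.33 to 0.65). Pigu, a subunit gene of the GPI transamidase, was at -0.24 (-0.45 to -0.03) and overlaps the edge of the window. Of the 12 other listed genes of the window, 10 were measured, 0 were at least 1.5-fold apart and 2, Map1lc3a and Pigu, were beyond counting error. Their median log2 ratio was -0.16. The nearest listed genes beyond the window were Gm14197, with 4 reads in cKO and 2 in fl/fl, and Trp53inp2, with 2145 reads in cKO and 1971 in fl/fl. In a further 1 Mb on each side, 30 of 37 listed genes were measured, and 1, 6430550D23Rik with 10 reads in cKO and 18 in fl/fl, was at least 1.5-fold lower. The background on chromosome 2 was 4.42% higher and 5.9% lower, of 1153 measured genes.

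**Figure D4:**
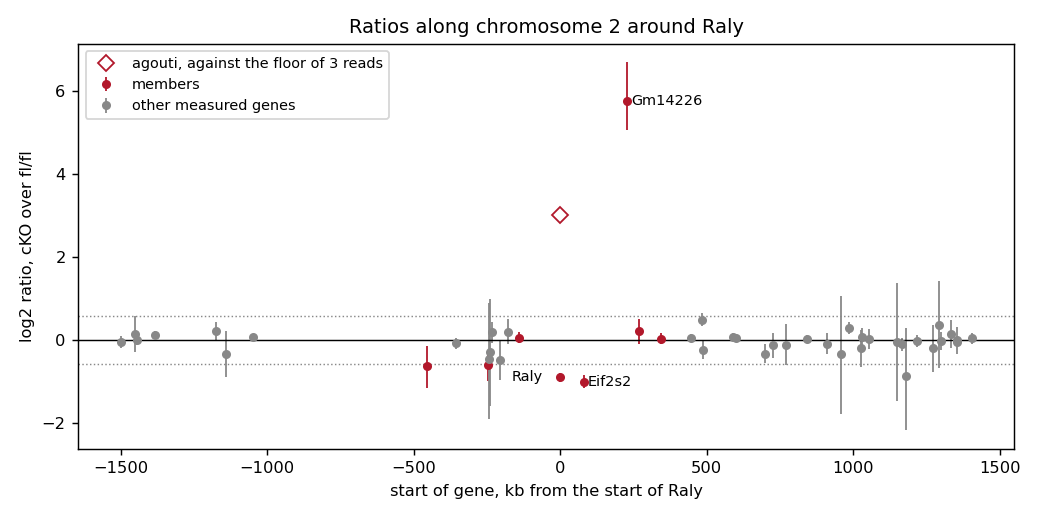
Log2 ratio of cKO over fl/fl for measured genes of the window and of 1 Mb on each side, by distance of the gene's start from that of Raly in kb, with exact 95% intervals for counting error. The open diamond is agouti, which starts next to Raly, against the floor of 3 reads. The 4 genes furthest from level start between 0 and 227 kb after the Raly start.

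Levels among the members can be compared per length. In CPM per kb of annotated exon after TMM scaling, Raly stood at 30.9 in cKO and 58.0 in fl/fl, and Chmp4b at 55.0 in cKO and 53.1 in fl/fl. Gm14226 stood at 28.2 in cKO and 0.503 in fl/fl. Thus the order of the members differed between the libraries: Chmp4b, Raly and Gm14226 led in cKO, whereas Raly, Chmp4b and Eif2s2 led in fl/fl. Eif2s2 stood at 7.87 in cKO and 15.8 in fl/fl, Itch at 9.85 and 9.64, and Ahcy at 8.39 and 7.27. Necab3 stood at 4.58 in cKO and 7.0 in fl/fl, and Cdk5rap1 at 1.83 and 2.85. Exon lengths are of all annotated transcripts merged, whichever of them these cells use, so per-length levels of genes with many transcripts are uncertain.

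Partners of the members in their pathways were mostly level, also where the member was not. Most measured genes were level too, with 8.95% of all of them at least 1.5-fold apart either way. Nothing particular to the partners is therefore read from the counts on these lists. The melanocortin list holds receptors, co-factors and processing enzymes of the system that agouti acts on. Of its 8 measured genes, 1 was at least 1.5-fold higher in cKO and 0 lower, with a median log2 ratio of 0.12. Pcsk2, a protease that processes hormone precursors, had 204 reads in cKO and 121 in fl/fl, a log2 ratio of 0.69 (0.37 to 1.03). Cpe, a carboxypeptidase that acts after it, was at 0.33 (0.25 to 0.41), and Pcsk1, the sister protease, had 15 reads in cKO and 11 in fl/fl. Mc4r, the melanocortin receptor of brain that agouti can block, had 223 reads in cKO and 211 in fl/fl, and Mc1r, the pigment cell receptor, 1 and 6. Atrn, which encodes attractin, a membrane protein needed for agouti to act on pigment, had 1350 reads in cKO and 1241 in fl/fl, and Mgrn1, a ubiquitin ligase of the same genetic pathway, 1248 and 1215. Pomc, the precursor of the melanocortins, had 9 reads in cKO and 4 in fl/fl, and Agrp, the agouti-related peptide gene, 5 and 5.

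The other subunits of eIF2 did not share the lower ratio of Eif2s2. Eif2s1, the alpha subunit gene, had 757 reads in cKO and 733 in fl/fl, a log2 ratio of -0.01 (-0.16 to 0.14), and Eif2s3x, a gamma subunit gene, 2715 and 2606, a log2 ratio of 0.0026 (-0.08 to 0.08). Of 16 measured partners on the eIF2 list, which adds exchange factors, kinases and phosphatase subunits, 0 were at least 1.5-fold apart, and the median was -0.01. Its members furthest from level were Ppp1r15a, a stress-induced phosphatase subunit gene, at -0.43 (-0.81 to -0.06), the kinase gene Eif2ak2 at -0.32 (-0.89 to 0.25) and the kinase gene Eif2ak4 at -0.18 (-0.38 to 0.03). Partners of Raly among the hnRNP genes were tighter still. All 13 were within 1.5-fold, with a median of 0.02. The median of the whole list, Raly included, was 0.014 and became -0.021 when scaled by library total. Hnrnpc, the gene that gives the hnRNP C family its name, had 3506 reads in cKO and 3359 in fl/fl, a log2 ratio of 0.0053 (-0.06 to 0.07). Ralyl, the Raly-like gene, was at 0.12 (-0.13 to 0.38), Hnrnpa1 at 0.11 (0.06 to 0.16) and Hnrnpm at 0.10 (0.02 to 0.17).

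The lists for the other members were level as well. On the ESCRT-III list 1 of 13 partners was at least 1.5-fold higher and 0 were lower. The higher one, Chmp4c, had 24 reads in cKO and 14 in fl/fl, a log2 ratio of 0.70 (-0.29 to 1.79). That interval includes level. Chmp5 was at -0.22 (-0.38 to -0.06) and Chmp2b at -0.20 (-0.44 to 0.03). On the methionine cycle list 0 of 9 partners of Ahcy were apart. Its members furthest from level were Mtrr, a reductase gene that keeps methionine synthase active, at 0.24 (-0.13 to 0.61), Ahcyl2 at -0.13 (-0.36 to 0.09) and Mat2b at -0.07 (-0.30 to 0.15). On the NEDD4 family list 0 of 10 partners of Itch were apart, with Ndfip1, an adaptor that activates these ligases, at 0.35 (0.22 to 0.48), Smurf1 at 0.21 (0.09 to 0.34) and Smurf2 at 0.12 (-0.01 to 0.26). Of 6 partners of Cdk5rap1, 1 was higher: Cdk5r2, a neuronal activator of Cdk5, had 483 reads in cKO and 274 in fl/fl, a log2 ratio of 0.76 (0.54 to 0.98). Cdk5 was at -0.20 (-0.38 to -0.02) and Cdk5rap3 at -0.18 (-0.39 to 0.03). On the list of NECAB and APP-binding genes 0 of 5 partners were apart, and Apba1, a neuronal adaptor gene, was at 0.25 (0.13 to 0.38), Necab2 at 0.15 (-0.16 to 0.46) and Apba3 at -0.11 (-0.46 to 0.24). Medians of the partners on these 5 lists ran between 0.0076 and 0.10.

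**Figure D5:**
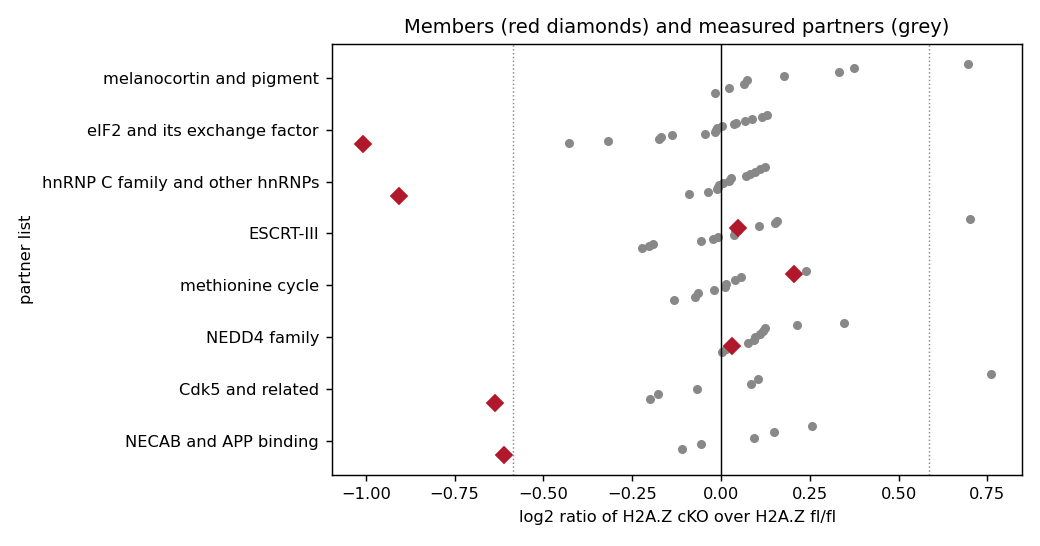
Log2 ratio of cKO over fl/fl for the measured genes of 8 lists of pathway partners, with the member of a list, where it has one, as a red diamond and the partners in grey. Eif2s2 and Raly stand left of all of their partners, as do Cdk5rap1 and Necab3 by less, and Chmp4b, Ahcy and Itch lie among theirs. Agouti and Gm14226 are not drawn.

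Markers of other tissues differed between the libraries, and in bulk RNA fewer cells of a type and less RNA per cell cannot be told apart. All 6 choroid plexus markers were at least 1.5-fold lower in cKO, with a summed level of 11.3 CPM in cKO and 777 CPM in fl/fl, as were 6 of 7 measured markers of dermal or meningeal fibroblasts, with 19.5 CPM in cKO and 235.5 CPM in fl/fl. Of 7 measured markers of thalamus and hypothalamus, 5 were at least 1.5-fold higher and 0 lower, with 243 CPM in cKO and 84.2 CPM in fl/fl. The largest part of the cKO sum came from Tcf7l2, at 114 CPM in cKO and 12.9 CPM in fl/fl. Nkx2-1 came next, at 54.8 and 19.9. The largest part of the fl/fl sum came from Lhx9, which was level at 42.3 CPM in both libraries. Whether each listed gene marks only those regions was not tested. The part of all these marker differences in the ratios of the agouti locus genes was not tested. Markers of skin were mostly low. Of 7 listed melanocyte markers, 3 were measured, 1 (Mitf, 12 reads in cKO and 29 in fl/fl) was lower and 0 were higher, and the summed level was 126 CPM in cKO and 132 CPM in fl/fl, most of it from Kit. Keratinocyte markers summed to 14.2 CPM in cKO and 19.9 CPM in fl/fl, and of 3 measured, 1, the desmosome gene Dsp, was lower and 0 were higher.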

How the data were processed

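The series holds 1 sample per genotype and 1 deposited table. Per the file headers, the authors give raw read counts per gene. The deposited CPM columns are those counts, with 0 entered as 0.5 read, times 1 constant per library, and 100% of nonzero values came back to whole reads within 0.01 read. The authors' ratio and log2 columns are fl/fl over cKO. No source used here names the test behind the deposited p-value columns. They stand beside 1 count column per genotype, so they are not taken as a measure of differences between animals. HTSeq 0.6.0, TopHat2 2.0.12, Bowtie2 2.2.3 and the build mm9 are listed, with no roles, per the submitters' processing notes. Positions in the table are, however, identical to GENCODE M21 on GRCm38 for all 9 members, so coordinates are given as GRCm38. No source used here gives strand or multi-match settings. Of 19720 gene identifiers, 19616 have a symbol.

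The counts, 9028523 in cKO and 8474545 in fl/fl, were scaled with TMM in edgeR 4.0.16 (R 4.3.3). The log2 ratio was taken with a prior of 0.5 read, with exact 95% intervals (Clopper-Pearson) for how reads divide between the libraries. Intervals between members are exact conditional ones on the 4 counts. A gene was measured from 20 reads and apart from 1.5-fold. Against 0 reads a floor of 3 reads was used. Intervals and floors cover counting error only, and reads without molecular identifiers are not independent molecules. No test between genotypes was run. On simulated counts, 96 of 97 genes changed 2-fold were called apart in the right direction, and so were 542 of 14160 unchanged genes in either direction (3.83%), among 14357 genes. The simulated counts held counting error alone, with no variation between animals, dissections or libraries. These rates therefore check the calculation and do not carry over to a difference between genotypes.

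Named were H2afz, the members, the other measured genes of the window (1 of them is counted but not reported here), up to 3 partners per list furthest from level and any apart, and the 3 genes next below Gm14226. The members and lists were chosen with earlier results of these data known. Hnrnpc, Mc4r, Mc1r, Atrn, Mgrn1, Pomc, Agrp, Eif2s1, Eif2s3x, the envelope genes, the genes just outside the window and single markers were named after their values were seen. Alternatives changed the scaling (library totals; DESeq2 1.42.0 size factors), the prior, the read minimum, the fold, the call rule and the window. Tables and figures were made in Python 3.11.15 with scipy 1.17.1, pandas 2.3.3, matplotlib 3.10.9 and numpy 2.4.6.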

Additional observations from a re-analysis of the deposited data

How the results depend on the processing

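The directions of the 6 members apart, and which 4 were lower, were the same under scaling by library totals, DESeq2 size factors, a prior of 5 reads, both other read minimums and the call rule that adds the interval. With a 2-fold limit 1 member, Eif2s2, was lower instead of 4, and 2 were higher. With a minimum of 100 reads 1 member was higher instead of 2, since agouti has 25 reads. With a prior of 5 reads the fitted log2 ratio of agouti was 2.53 instead of 5.62, because the fl/fl library has 0 reads, so neither value is a bound. Scaling moved the median log2 ratio of all measured genes by -0.03 (totals) and 0.02 (DESeq2). It turned the sign of Itch and of the medians of the hnRNP, methionine cycle and NECAB lists, all near 0. The 506 genes higher and 780 lower became 1833 and 2303 with no minimum, 165 and 200 with a minimum of 100 reads, 138 and 289 with a 2-fold limit, and 290 and 459 when the interval had to exclude level. Neighbours in the window at least 1.5-fold lower numbered 2 with no minimum and 1 with 1 Mb added on each side, instead of 0. In all, 74 of 87 recomputed values stayed close to the reported one. Close means a count within 1.5-fold, or a ratio or list median within the interval found with the main settings. A change of scaling moves all ratios by the same small amount, so many of these values could hardly move. No paired analysis was possible because each genotype has 1 sample, and for the same reason no replicate could be left out. The depth leaves agouti, Cdk5rap1 and the low neighbours with wide intervals.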
